A study of Mus musculus with 30 samples.

Results

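The clone ST5 of mouse induced pluripotent stem (iPS) cells was compared at day 5 of an endoderm differentiation with the same clone at day 0, on 6 of the 30 arrays of the series and over the 19938 genes that had a probe set naming that gene alone. The day 5 cells were sorted as Kit positive and Sox2 dim, and the day 0 cells were undifferentiated cells sorted as Sox2 bright, with 3 biological replicates at each day. The cells are of the C57BL/6x129SvJae background, their total RNA was extracted with miRNeasy, and it was labelled with the Affymetrix kit without amplification. ES cells and a second iPS clone, ST8, of that background were collected, sorted, extracted and labelled in the same way at both days, with 3 arrays per group, and serve here as comparisons. ST5 is 1 clone, so its arrays carry nothing on how clones vary. The culture conditions of the differentiation are not given in the sources used here.

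iPS cells are body cells that were returned to a pluripotent state by reprogramming factors, and like ES cells they can give rise to all germ layers. Definitive endoderm is the germ layer that forms the lining of the gut and the airways, the liver and the pancreas. In the embryo it leaves the primitive streak under Nodal signalling, switches on transcription factors such as Sox17, Foxa2 and the Gata family, and becomes an epithelium. Because the gates differed between the days, the effect of differentiation and that of sorting cannot be told apart in the differences given here, and the levels of Sox2 and Kit are no findings. Values are log2 levels after RMA, a normalization of Affymetrix arrays. A difference of 1 is a 2-fold change. Differences are day 5 minus day 0 with the standard error of limma's fit to the 18 unamplified arrays, and a gene is called when its adjusted p is under 0.05 over all genes.

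The arrays of ST5 were close to each other. At day 5, 1 gene on each array lay at least 2-fold from the mean of the other arrays of its group, and at day 0 it was 2 genes on each. Elsewhere this count was 354 on day 5 replicate 1 of ES cells and 657 on day 5 replicate 2 of ST8, against 21 to 101 on the other day 5 arrays of those lines and 0 to 2 on their day 0 arrays. These 2 arrays widen the standard errors of every gene they scatter in. The median level of the unamplified arrays ran from 5.5 to 5.57, and no pair of arrays held identical values. Array signals have no sequencing depth, so precision rests on how many arrays there are and on the spread between them.

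A total of 9560 genes, 47.9% of those tested, were called between the days, 4621 of them higher at day 5 (23.2%) and 4939 lower (24.8%). At least 2-fold differences were called in 1230 genes that rose (6.17%) and 980 that fell (4.92%), and at least 16-fold differences in 36 and 30. With so many calls, a share of called members in a gene list is read here against these percentages. Arrays of the days did not overlap for 26.9% of genes with higher and 30.1% with lower values at day 5. Without the 2 arrays that stand apart 10535 genes were called, and all 9560 were among them in the same direction.

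The largest rises were led by Cpm, Rfx6 and Pga5. Cpm, a carboxypeptidase of the cell membrane, stood at 10.48, 10.59 and 10.41 on the day 5 arrays, against 4.20, 3.86 and 3.86 on the day 0 arrays. It rose by 6.52 ± 0.42 (SE, n = 3 per group; limma adjusted p = 3.34e-09). Rfx6, a transcription factor needed for endocrine cells of the mouse pancreas, stood at 9.74, 9.88 and 9.86 at day 5, against 3.70, 3.75 and 3.56 at day 0, a rise of 6.15 ± 0.50 (adjusted p = 3.85e-08). Pga5, the precursor of a stomach protease, stood at 11.60, 11.44 and 11.41, against 5.58, 5.76 and 5.02 at day 0. This ranking took only genes whose ST5 arrays did not overlap between the days, so that separation is no further evidence. Next came Clic6, of the chloride intracellular channel family, with 5.92 ± 0.36, the trypsin inhibitor Spink1 with 5.70 ± 0.37 and the aldo-keto reductase Akr1c19 with 5.63 ± 0.69. The glucokinase regulator Gckr rose by 5.21 ± 0.41, and Irs4 and Igfbp5, an adaptor and a binding protein of insulin-like signalling, by 4.94 ± 0.39 and 4.92 ± 0.24. Isl1, the retinol carrier Rbp4 and the membrane protease Tmprss2 completed the 12 largest with 4.88 ± 0.33, 4.81 ± 0.39 and 4.80 ± 0.48.

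The largest falls were led by Dppa5a, a pair of zinc finger genes and Tdrd12. Dppa5a, a KH-domain protein found in pluripotent cells, stood at 4.85, 4.67 and 5.40 at day 5, against 12.30, 12.22 and 12.29 at day 0, a difference of -7.30 (SE 0.20, limma adjusted p = 2.16e-13). Tdrd12, a Tudor protein of the piRNA pathway, stood at 4.27, 3.88 and 3.91, against 10.20, 10.17 and 10.72 at day 0. Lncenc1, a long noncoding RNA of ES cells, stood at 4.58, 4.40 and 4.42, against 10.43, 10.56 and 10.83 at day 0. The falls too were picked only from genes without overlap of arrays between the days. The zinc finger genes Zfp980 and Zfp640 differed by -6.39 (SE 0.22) and -6.38 (SE 0.14). Both belong to families with near-identical copies, so their signal may be shared with other copies. Of the 317 measured genes named Zfp with a number, 124 rose and 80 fell. Fbxo15, Epp13, Dppa2, Mmp3, Dnmt3l, Bgn and Lrrc34 made up the rest of the 12, from -5.69 (SE 0.11) for Fbxo15 to -4.97 (SE 0.43) for Lrrc34.

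**Figure D1:**
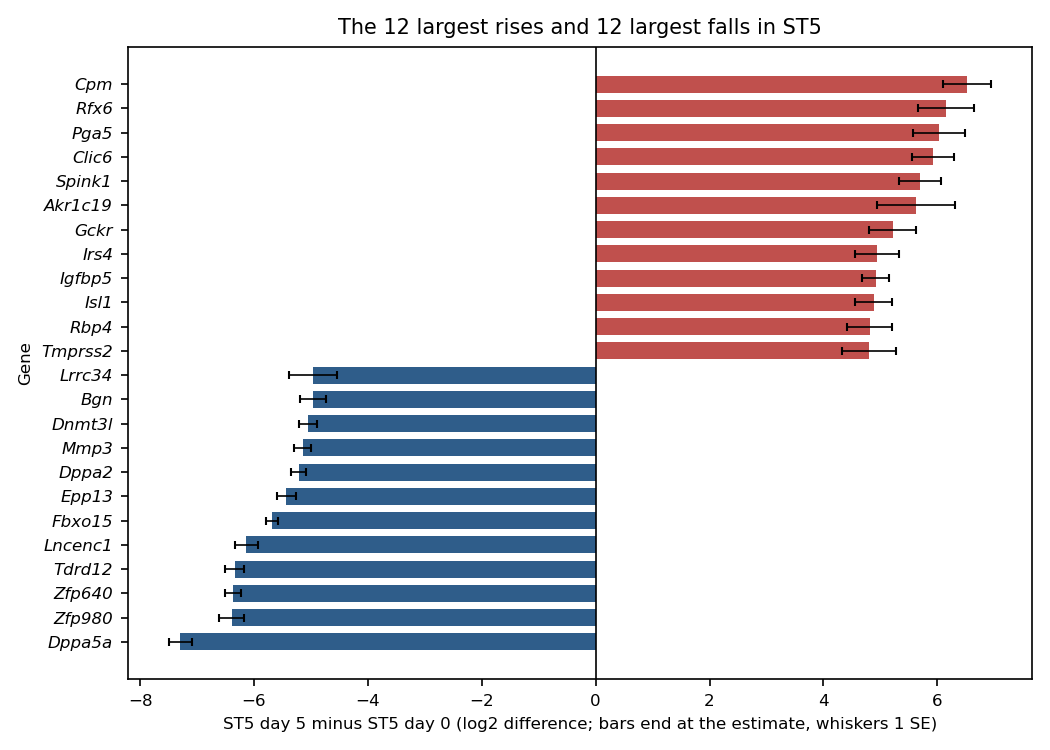
The 12 largest rises (red) and 12 largest falls (blue) among named genes, as day 5 minus day 0 in ST5 on the log2 scale, with bars from 0 to the estimate and whiskers of 1 SE. The rises run from 6.52 for Cpm to 4.80 for Tmprss2 and the falls from -4.97 for Lrrc34 to -7.30 for Dppa5a.

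Most listed pluripotency genes fell in ST5, by unequal amounts. Of 8 measured core and late factors besides Sox2, which the sort used, 5 fell and 1 rose, with a median difference of -1.53, beside -0.04 over all genes tested. Nanog, a homeodomain factor of the core network, stood at 5.96, 6.58 and 5.78 at day 5, against 10.78, 10.74 and 10.70 at day 0. Pou5f1, its partner, stood at 8.36, 8.40 and 8.29, against 11.10, 11.12 and 11.05 at day 0. Both sets of arrays were separate between the days, and the differences were -4.63 (SE 0.55) and -2.74 (SE 0.57, limma adjusted p = 0.000736). Utf1 and L1td1 fell by 4.29 and 3.20 on the log2 scale. Sall4, a zinc finger factor, rose by 0.42 ± 0.14 (limma adjusted p = 0.0184), a call that was lost without day 0 replicate 3 or day 5 replicate 3. Lin28a (0.14) and Zfp281 (0.07) were not called. In bulk samples such as these, fewer cells of a type and less RNA per cell cannot be told apart.

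The naive factors, which maintain the state of the early epiblast, fell in 14 of 14 cases with a median of -2.33. Esrrb, an orphan nuclear receptor, stood at 4.59, 4.38 and 4.66 at day 5, against 9.13, 9.27 and 9.39 at day 0, which is -4.72 (SE 0.11, limma adjusted p = 2.45e-14). Tcl1, Nr5a2 and Klf2 followed with -3.29, -3.21 and -3.09, while Klf4 (-1.44) and Tbx3 (-0.63) fell least along with Gbx2 (-1.28). Zfp42 was uneven between the day 5 arrays, at 5.36, 4.25 and 5.62, against 7.85, 7.59 and 8.20 at day 0. The group of Dppa genes and other genes restricted to pluripotent cells fell in 14 of 14 cases, with a median of -3.66, from Dppa5a to Khdc3 at -1.06. Among them were Gdf3 (-4.43, SE 0.08), a ligand of the Nodal family, the DNA-binding factor Dppa4 (-4.39, SE 0.12) and the adhesion proteins Jam2 (-3.91) and Pecam1 (-3.30).

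**Figure D2:**
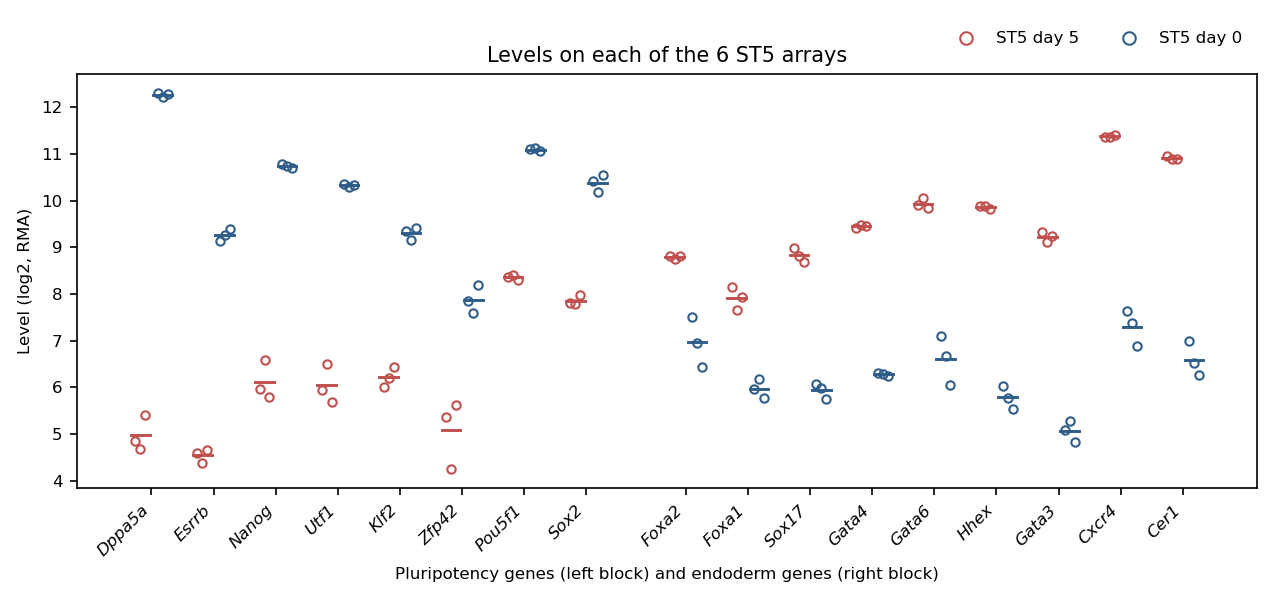
Log2 level of 8 pluripotency genes and 9 endoderm genes on each of the 3 day 5 arrays (red, left of each pair) and 3 day 0 arrays (blue) of ST5, with a line at the mean of each group. Sox2 was used in the sort. The days do not overlap for any of the 17 genes; the 3 day 0 arrays lie further apart for Foxa2, Gata6, Cxcr4 and Cer1 than the 3 day 5 arrays.

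Transcription factors of the endoderm rose in 11 of 16 measured cases, with 1 fall and a median of 1.89. Gata3, Hhex, Gata6 and Gata4 led them. Hhex, a homeodomain factor of anterior endoderm, stood at 9.88, 9.88 and 9.82 at day 5, against 6.03, 5.77 and 5.54 at day 0, a rise of 4.08 ± 0.49 (limma adjusted p = 2.69e-06). Gata4 stood at 9.41, 9.48 and 9.45, against 6.31, 6.28 and 6.24 at day 0. Sox17, an SRY-box factor that marks definitive endoderm, stood at 8.99, 8.82 and 8.69, against 6.08, 5.98 and 5.76 at day 0, and rose by 2.90 ± 0.50. The forkhead factors, which open chromatin at endoderm genes, rose by unequal amounts, Foxa3 by 2.77 ± 0.45, Foxa1 by 1.95 ± 0.24 and Foxa2 by 1.83 ± 0.29. Foxa2 stood at 8.82, 8.76 and 8.81 at day 5, against 7.51, 6.94 and 6.43 at day 0, so its day 0 arrays were spread over more than 1 unit. Hnf4a, a nuclear receptor of gut and liver, rose by 2.36 ± 0.31. Sox7, a marker of primitive and parietal endoderm, was the member that fell, at -0.38 (SE 0.10), and Gata5, Elf3, Hnf4g and Klf6 were not called.

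Secreted and surface markers of the endoderm rose in 11 of 15 cases, with none lower and a median of 2.36. Cxcr4, the chemokine receptor of migrating endoderm, stood at 11.37, 11.35 and 11.41 at day 5, against 7.63, 7.37 and 6.89 at day 0. Cer1 (Cerberus), which blocks Nodal and BMP ligands outside the cell, stood at 10.97, 10.88 and 10.88, against 7.0, 6.51 and 6.26 at day 0. The differences were 4.08 ± 0.33 and 4.32 ± 0.20. Pyy, a gut hormone, rose by 4.70 ± 0.57, the lysosomal protease Ctsh by 3.13 ± 0.34 and the keratin Krt19 by 2.50 ± 0.22. Sox17, Foxa2, Cxcr4 and Cer1, taken here as markers of definitive endoderm, were thus higher at day 5 than at day 0, while Pou5f1 was still at 8.29 to 8.40. The sample titles name these cells endoderm and give no markers.

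The next list held factors of the foregut, the pancreas and its endocrine cells. Of 22 measured, 12 rose and 2 fell, with a median of 0.75. Beside Rfx6 and Isl1, the Iroquois factors Irx5 and Irx3 rose by 2.34 ± 0.28 and 1.87, Pax9, of the pharyngeal pouches, by 1.86 ± 0.22 and Tbx1, of the pharynx, by 1.48 ± 0.18. Pdx1, the regulator of pancreas formation, stood at 5.67, 5.98 and 5.54 at day 5, against 4.61, 4.64 and 4.79 at day 0, a rise of 1.05 ± 0.12 (limma adjusted p = 1.37e-06). Its day 5 arrays lay above its day 0 arrays, near the median level of the arrays. The endocrine factor Neurog3 (-0.01), the acinar factor Ptf1a (-0.06), the lung and thyroid factor Nkx2-1 (-0.02) and Mnx1 (-0.12) were not called. Pax6 fell by 0.36 on the log2 scale and Nkx6-1 by 0.25, and the call of Nkx6-1 was lost without any of 5 ST5 arrays in turn. Posterior genes gave no rise: of 21 Cdx and Hox genes 6 fell and none rose, beside 24.8% lower over all genes. Their differences ran from -0.46 to 0.05. Most of these genes were dim, and with dim genes left out 1 of the 21 remained. Without day 0 replicate 2 or day 5 replicate 1, 3 of the 21 fell.

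Genes of the primitive streak, through which endoderm forms, were mostly lower by day 5 in ST5, with 8 falls and 2 rises among 14. In ES cells 5 of these rose and 2 fell, and in ST8 3 rose and 4 fell. For 6 of the 14 the difference between the days was called lower in ST5 than in ES cells, beside 2.28% over all genes. Against ST8 it was called lower for 0 of the 14, beside 1.05% over all genes. The T-box gene T had no probe set of its own. Lhx1 and Gsc, factors of the anterior streak, rose by 2.71 ± 0.38 and 1.19 ± 0.25. Sp5, a target of Wnt signalling, stood at 5.63, 5.75 and 5.88 at day 5, against 7.87, 7.86 and 7.67 at day 0, a difference of -2.05 (SE 0.08). Mixl1 stood at 6.29, 6.60 and 6.64, against 8.73, 8.09 and 7.08 at day 0. Its day 5 arrays lay below its day 0 arrays, but these differed by more than 1.5 among themselves, and the difference was -1.45 (SE 0.29, limma adjusted p = 0.000475). In ES cells Mixl1 stood at 6.19 to 6.77 at day 5, against 5.63 to 5.90 at day 0. In ST8 it was lower at day 5 as in ST5, at 6.30 to 6.62, against 7.13 to 7.80 at day 0. Eomes, a T-box factor upstream of endoderm, stood at 8.41, 8.48 and 8.42, against 8.47, 8.09 and 7.36 at day 0, and with overlapping arrays it was not called (0.46 ± 0.22, limma adjusted p = 0.104). In the list of formative epiblast genes 3 of 11 rose, Sox4 by 3.03 ± 0.20, Otx2 by 2.36 ± 0.14 and Fgf5 by 0.84 ± 0.19, and 4 fell, with Pim2 first at -2.59 (SE 0.50). Without the 2 arrays that stand apart, 8 of these 11 fell.

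Extraembryonic endoderm shares many genes with definitive endoderm, so its markers were read separately. Of 21 genes of visceral endoderm and liver secretion 11 rose and 2 fell, with a median of 0.33. Transthyretin (Ttr), a carrier of thyroid hormone and retinol-binding protein, stood at 8.96, 9.05 and 9.13 at day 5, against 4.42, 4.78 and 4.63 at day 0. Slc39a8, a zinc transporter, rose by 4.49 ± 0.21, and the apolipoproteins Apoa1 and Apob by 3.45 ± 0.34 and 2.23 ± 0.20. Apoa2, a further apolipoprotein, went the other way at -2.57 (SE 0.08), with 5.65, 5.36 and 5.56 at day 5, against 8.0, 8.14 and 8.14 at day 0, as did transferrin (Trf) at -1.33. Afp (0.12), Amn (-0.17) and Alb (0.00), which visceral endoderm or liver is known for, were not called. Of 13 parietal endoderm genes 8 rose and 2 fell. Pth1r rose by 2.41 ± 0.31, Sparc by 0.68 and Plat by 0.66, a call lost without any of 3 ST5 arrays in turn, while Thbd was not called (-0.46, limma adjusted p = 0.0716) and the activin antagonist follistatin (Fst) fell by 2.51. Dab2, listed with both tissues, rose by 1.25 ± 0.15 on the probe set used, and its other probe set gave -0.07.

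Markers of other cell types gave mixed counts. Of 20 mesoderm and heart genes 6 rose and 3 fell, with a median of 0.00. The risers included Tbx20 (4.39 ± 0.26), Myl7 (1.96 ± 0.18) and Foxc1 (1.81 ± 0.25), whereas Mesp1 (0.02), Tbx6 (0.21) and Pdgfra (-0.34) were not called. Among 14 endothelial genes Flt1 rose by 3.18 ± 0.37 and Kdr by 0.79, 4 genes fell, and Cdh5 (-0.01) and Tie1 (-0.16) were not called. Of 12 blood genes Gata1 rose (0.63) and Spi1 fell (-0.33), the call of Gata1 being lost without day 0 replicate 1 and that of Spi1 without any of 4 ST5 arrays in turn, and Ptprc was not called (0.00). Of 16 neural and neural crest factors 8 fell and 2 rose, or 4 and 2 without day 0 replicate 2 or day 5 replicate 1. Sox1 and Pax6 both fell by 0.36, the call of Sox1 being lost without these arrays too, the tubulin Tubb3 by 1.97, and Neurog2 was not called (-0.04). Among 11 trophoblast genes 4 rose, Gata3 by 4.16 ± 0.27, the keratin Krt7 by 2.34, Ascl2 by 1.73 and Peg10 by 1.04. Tfap2c fell by 3.40 and Elf5 was not called (0.07).

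Fibroblast markers fell in 17 of 19 cases and rose in none, with a median of -1.60. The mean level of the list ran from 5.44 to 5.48 over the day 5 arrays, against 7.23 to 7.44 over the day 0 arrays. Lox, an enzyme that cross-links collagen, stood at 3.63, 3.50 and 3.76 at day 5, against 8.32, 7.78 and 8.12 at day 0. The proteoglycan decorin (Dcn) fell by 3.78 on the log2 scale, and Col1a1 stood at 6.54, 6.43 and 6.70, against 9.84, 9.81 and 9.70. These markers moved in the same direction as Bgn and Mmp3 among the largest falls and as several matrix and mesenchymal genes given next, and their part in those falls was not tested. Whether feeder cells were used in the culture is not given in the sources used here.

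Genes of epithelial junctions were higher in the day 5 cells. Of 30 keratins, claudins and junction genes 26 rose and 1 fell, with a median of 1.05. Krt18 and Krt8, the keratin pair of simple epithelia, rose by 4.22 ± 0.20 and 3.74 ± 0.21. Krt18 stood at 11.71, 11.72 and 11.68 at day 5, against 7.97, 7.47 and 7.0 at day 0. The desmosomal cadherin Dsc2 rose by 3.80 ± 0.31, occludin (Ocln) by 2.67 ± 0.20, desmoplakin (Dsp) by 2.53 ± 0.19 and Cldn6 by 2.36 ± 0.22. Krt23 was the member that fell, by 1.04. Cdh1, the cadherin of epithelia, was high on all 6 arrays, at 11.14, 11.17 and 11.15 at day 5, against 10.21, 10.12 and 10.19 at day 0, and rose by 0.98 ± 0.19. Cdh6 rose by 3.75 ± 0.44. Of 14 cadherins and factors of the epithelial to mesenchymal transition 3 rose, Cdh1 and Cdh6 among them, and 5 fell, with a median of -0.15, a share of falls to be read beside the 24.8% over all genes. The falls included vimentin (Vim) with 2.29, Cdh11 with 1.80 and Zeb1 with 1.31 on the log2 scale, while Cdh2 (-0.10) and Fn1 (0.03) were not called. Basement membrane genes split, with 7 rises and 7 falls among 21, from Fras1 at 1.18 ± 0.11 and Lamb1 at 1.16 to Lama4 at -1.74 and Nid1 at -2.04.

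**Figure D3:**
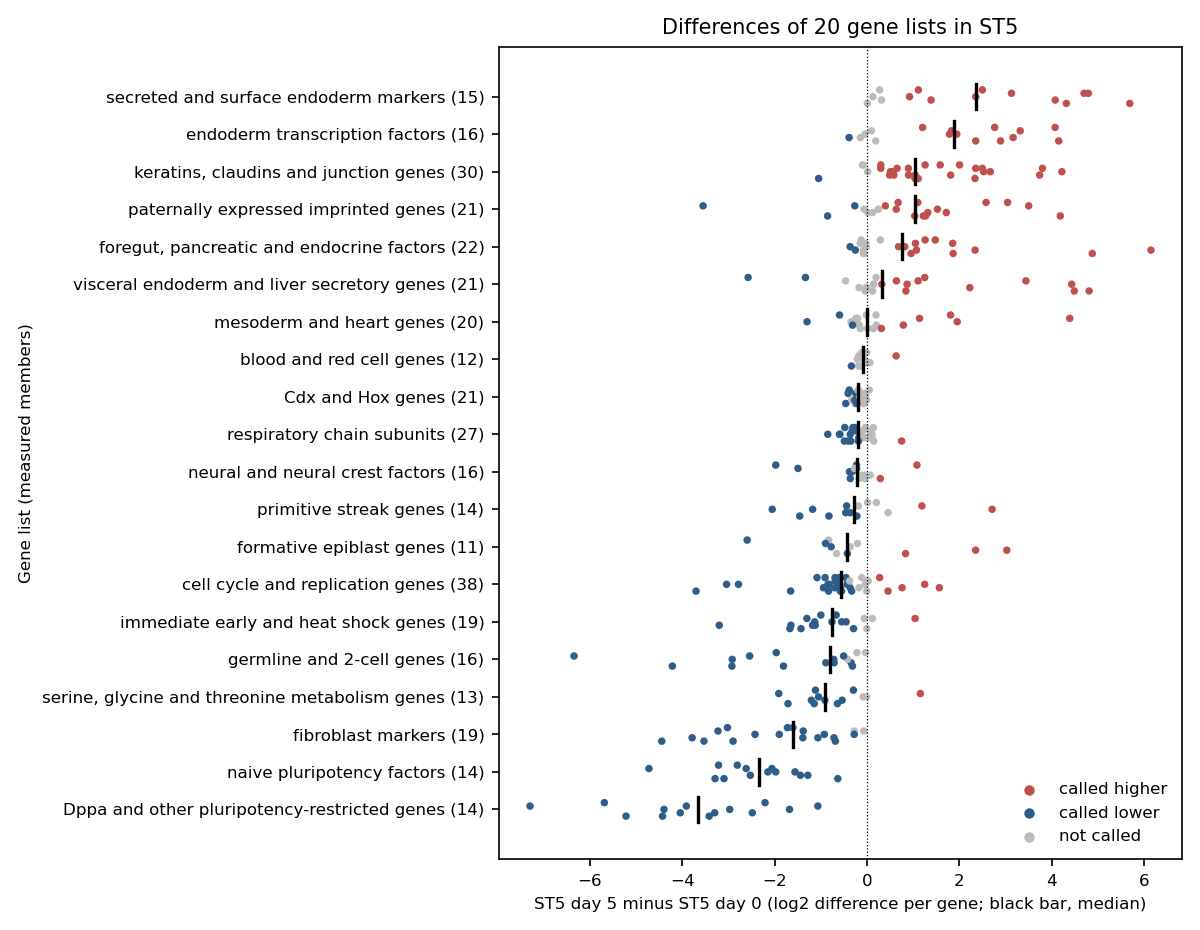
Log2 differences, day 5 minus day 0 in ST5, of the measured members of 20 gene lists, with each point a gene (red, called higher; blue, called lower; grey, not called) and a black bar at the median. The medians run from 2.36 for secreted and surface endoderm markers to -3.66 for the Dppa group, while Cdx and Hox genes and blood genes lie close to 0.

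In the Nodal pathway 12 of 20 genes rose and 7 fell, with a median of 0.72. Tdgf1 (Cripto), the co-receptor of Nodal in pluripotent cells, stood at 6.92, 7.31 and 6.94 at day 5, against 11.94, 11.90 and 11.83 at day 0, a difference of -4.83 (SE 0.64, limma adjusted p = 8.57e-06). Cfc1 (Cryptic), the related co-receptor, stood at 7.78, 7.78 and 7.71, against 5.94, 5.77 and 5.70 at day 0, and rose by 1.95 ± 0.15. So the 2 co-receptors moved in opposite directions, with no overlap of arrays in either. Nodal itself fell by 0.36 (SE 0.09), the activin subunit Inhba by 1.30, and the feedback antagonist Lefty1 rose by 0.80 ± 0.14 while Lefty2 was not called (-0.23). Of the receptors and mediators, Acvr1b rose by 1.16, Acvr2a by 1.29, Smad2 by 1.20 ± 0.14 and Smad3 by 1.95 ± 0.13.

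Among 33 Wnt genes 16 rose and 12 fell. Secreted antagonists rose, Sfrp5 by 4.52 ± 0.46, Dkk1 by 3.04 ± 0.33, Frzb by 2.98 ± 0.24 and Sfrp1 by 2.31, whereas Dkk3 (-1.44) and Sfrp2 (-1.26) fell. Sfrp5 stood at 9.58, 9.61 and 9.46 at day 5, against 4.80, 5.18 and 5.11 at day 0. Frizzled receptors rose in 5 of the 6 measured in the list, with Fzd8 first at 2.82 ± 0.17, and Fzd10 fell (-1.06). Known targets of canonical Wnt signalling fell, Axin2 by 2.15, Sp5 by 2.05, Notum by 1.71 and Lef1 by 0.90. Axin2 stood at 5.19, 5.33 and 5.32, against 7.44, 7.57 and 7.27 at day 0. Lgr5 (1.41 ± 0.20) and Rnf43 (1.0), targets too, rose. The ligand Wnt5a rose by 2.47 ± 0.46, and Wnt8a and Wnt3 fell by 1.58 and 1.17.

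BMP genes rose in 14 of 21 cases, with 5 falls and a median of 1.26. The 2 best-known ligands parted: Bmp2 stood at 9.27, 9.20 and 9.42 at day 5, against 4.85, 5.02 and 4.66 at day 0, and Bmp4 at 5.91, 5.73 and 6.04, against 8.63, 8.53 and 8.73. Bmp2 rose by 4.45 ± 0.26 and Bmp4 changed by -2.74 (SE 0.23), without overlap of arrays in either. Targets of BMP signalling rose, Id2 by 3.22 ± 0.19, Bambi by 2.51 ± 0.25, Id1 by 2.10 ± 0.15 and Id3 by 1.37 ± 0.24. The antagonist Grem1 fell by 1.95, Chrd by 0.66, a call lost without 4 of the ST5 arrays in turn, and Nog was not called (0.15). In the FGF list 6 of 20 rose and 8 fell. The ligands Fgf17 and Fgf4 fell by 2.49 and 2.48, and the response genes Etv5, Etv4 and Spry2 by 1.65, 1.37 and 1.21. Etv5 fell by 0.81 on its other probe set. The receptor Fgfr2 rose by 2.06 ± 0.20, Flrt3, a membrane protein that binds FGF receptors, by 2.65 ± 0.35 and Fgf10 by 1.19 ± 0.20.

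**Figure D4:**
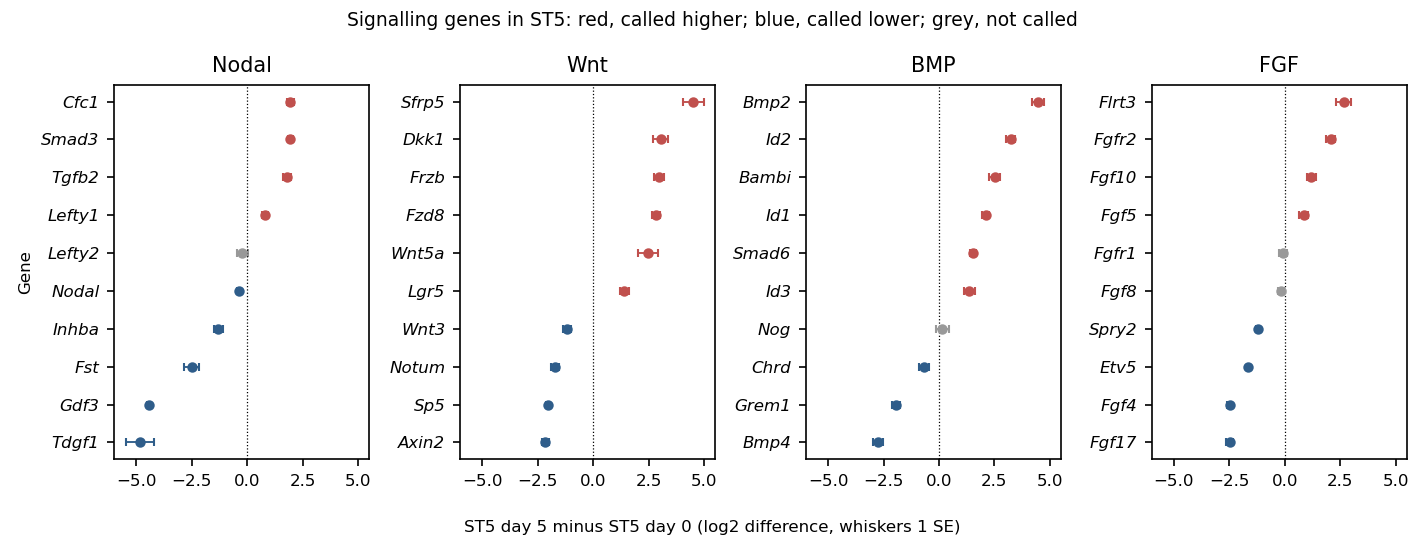
Log2 differences, day 5 minus day 0 in ST5, with whiskers of 1 SE, for 10 genes in each of 4 signalling lists, picked from the lists with their values known. Bmp2 (4.45) and Bmp4 (-2.74), Cfc1 (1.95) and Tdgf1 (-4.83), and Sfrp5 (4.52) and Axin2 (-2.15) lie on opposite sides of 0.

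The Hippo, retinoic acid and guidance lists split between rises and falls. Amot, a membrane-bound regulator of the coactivator Yap1, stood at 11.58, 11.70 and 11.63 at day 5, against 7.54, 7.18 and 6.59 at day 0, a rise of 4.53 ± 0.28. Of 19 Hippo genes 9 rose and 5 fell (8 and 2 without day 5 replicate 1). The target Ccn2 fell by 1.79, Ccn1 rose by 0.85 and Yap1 by 0.25 ± 0.06. Of 14 retinoic acid genes 5 rose and 4 fell. The receptor gene Rarb stood at 8.85, 8.85 and 8.87, against 4.35, 4.75 and 4.45 at day 0, and the degrading enzyme Cyp26a1 rose by 3.03 ± 0.32, both being known targets of retinoic acid in the mouse. The synthesizing enzyme Aldh1a2 fell by 1.06 and the binding protein Crabp1 by 1.98. Of 30 guidance genes 15 rose and 8 fell, with the semaphorin and VEGF co-receptor Nrp1 at 3.90 ± 0.55, Efna5 at 2.91 ± 0.15, Robo1 at 2.86 ± 0.35 and Sema6d at 2.80 ± 0.35 first, and Ntn1 at -1.83 last.

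Imprinted genes are expressed from the allele of 1 parent. Of 21 measured genes expressed from the paternal allele 14 rose and 3 fell, with a median of 1.04. Airn, the antisense RNA of the Igf2r domain, stood at 9.48, 9.21 and 9.22 at day 5, against 5.06, 5.18 and 5.11 at day 0. Strand use of its probe set is not given in the sources used here. Igf2, a growth factor, rose by 3.51 ± 0.17, Nnat by 3.05 ± 0.12 and Peg3 by 2.58 ± 0.14. Sfmbt2, a Polycomb protein, stood at 5.73, 5.70 and 5.49, against 9.38, 9.08 and 9.10 at day 0, the largest fall of the list at -3.55 (SE 0.11). Of 12 measured maternally expressed genes 6 rose and 3 fell. Grb10, an adaptor that restrains insulin receptors, rose by 2.64 ± 0.15, Zim1 by 2.09 ± 0.11, the cell cycle inhibitor Cdkn1c by 1.57 ± 0.11 and Igf2r by 1.41. Meg3, a long noncoding RNA of the Dlk1-Dio3 domain, stood at 5.17, 5.33 and 5.11, against 7.59, 7.58 and 7.50 at day 0, and fell by 2.36 (SE 0.10). Dlk1 and Dio3, of the same domain, rose by 1.27 ± 0.17 and 0.64, while Rian (-0.35) and Rtl1 (0.02) were not called.

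Germ cell genes and parts of the DNA methylation machinery were lower at day 5. Of 16 germline and 2-cell genes 13 fell and none rose, with Ddx4, the germ cell helicase, at 4.18, 4.27 and 4.11 at day 5, against 8.45, 8.19 and 8.55 at day 0. Sycp1 (-2.92) and Sycp3 (-2.54) of the synaptonemal complex fell. Of 13 DNA methylation genes 6 fell and 1 rose. Dnmt3l, the cofactor of the de novo enzymes, stood at 4.07, 4.17 and 3.97, against 9.29, 9.02 and 9.06 at day 0. The oxygenases moved apart, Tet1 at -2.59 (SE 0.17) and Tet3 at 2.10 ± 0.15, with 1.35 on the other probe set of Tet3, and Tet2 was not called (0.04). Dnmt3a (-0.66) and Dnmt3b (-0.20) were not called. Of 17 alternatives, 4 gave a call of Dnmt3a (limma adjusted p down to 2.02e-07) and 2 a call of Dnmt3b. Among 24 Polycomb and remodelling genes 9 rose and 6 fell, from the demethylase Kdm6b at 1.44 ± 0.10 and Bmi1 at 1.32 ± 0.18 to Cbx7 at -1.28 and Eed at -1.35. The other probe set of Eed gave -0.15, so that fall rests on 1 of its probe sets.

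Of 38 cell cycle and replication genes 26 fell and 5 rose, with a median of -0.56. Cdk6, a kinase of the G1 phase, stood at 5.18, 5.06 and 5.05 at day 5, against 8.83, 8.73 and 8.83 at day 0, and Ccnd1, its cyclin partner, at 6.64, 7.01 and 6.87, against 9.97, 9.84 and 9.82. Mycn fell by 2.78 and Ccne1 by 1.65, and the inhibitors Cdkn2a and Cdkn1b rose by 1.25 ± 0.27 and 0.46. Mki67 (-0.11) and Myc (-0.17) were not called. Genes of serine, glycine and threonine metabolism fell in 10 of 13 cases, with Mthfd2 at -1.91 (SE 0.17) and Psat1 at -1.71 (SE 0.11) first, and Gcsh rose by 1.16 ± 0.31. Respiratory chain subunits fell in 15 of 27 cases by at most 0.85 (Ndufv1), and Cox7a1 rose by 0.75. In the glycolysis list 9 of 22 rose and 5 fell, led by the lactate transporter Slc16a1 at 2.51 ± 0.19 and the glucose transporter Slc2a1 at 1.77 ± 0.09, with the kinases Pfkp and Pdk1 at -2.24 and -1.26. Cholesterol and fatty acid genes gave 4 rises and 4 falls among 23, all smaller than 1 in size (4 and 2 without day 5 replicate 3, 7 and 5 without the 2 arrays that stand apart).

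Secretory and lysosomal genes rose more often than they fell, 13 against 4 among 24 in each list. Creb3l1 and Xbp1, factors that drive secretory capacity, rose by 1.62 ± 0.26 and 0.99 ± 0.13, and the cholesterol transporter Npc1 by 2.04 ± 0.15, while Atf4 fell by 0.85 and Cltb by 2.18. Of 19 immediate early and heat shock genes 15 fell and Jun alone rose (1.05 ± 0.18), with Hspb1 at -3.20 (SE 0.15), Fos at -1.67 and Atf3 at -1.64 among the falls. Of 14 targets of p53 10 fell, from Gtse1 at -1.43 down to Aen at -0.31, and Btg2 and Perp rose by 1.04 and 0.87. Of 10 housekeeping genes 6 fell and 2 rose. Hprt fell by 1.73 and B2m by 1.66, and Rplp0 was not called (-0.10).

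MicroRNAs are short RNAs that pair with messenger RNAs mainly through their seed, bases 2 to 8. Which RNA, the precursor or the mature form, a probe set of a microRNA gene reads is not given in the sources used here. Among 296 microRNA genes 24 rose (8.11%) and 42 fell (14.2%), beside 23.2% and 24.8% over all genes. The mature sequences below, from RefSeq with its GRCm38.p6 coordinates, are those of called genes, of relatives with the same seed and, for comparison, of Mir302b and Mir302d, which were not called. The seed is in capitals.
miR-200a-3p: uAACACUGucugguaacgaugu
miR-200b-3p: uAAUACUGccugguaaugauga
miR-192-5p: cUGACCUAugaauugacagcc
let-7f-5p: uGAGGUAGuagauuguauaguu
miR-106a-5p: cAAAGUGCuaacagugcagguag
miR-20b-5p: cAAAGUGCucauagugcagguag
miR-17-5p: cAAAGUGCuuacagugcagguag
miR-20a-5p: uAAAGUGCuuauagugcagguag
miR-19b-3p: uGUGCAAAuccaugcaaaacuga
miR-363-3p: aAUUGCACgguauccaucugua
miR-302b-3p: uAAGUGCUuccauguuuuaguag
miR-302d-3p: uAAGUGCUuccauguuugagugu

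Of the 21 listed microRNA genes 3 rose and none fell. The 3 risers were dim: with dim genes left out 9 listed genes remained, and none of them was called. Mir200b and Mir200a, neighbours on the minus strand of chromosome 4 (mature sequences at chr4:156055685-156055706 and chr4:156054911-156054932) whose products act against Zeb factors, rose by 0.94 ± 0.25 and 0.59 ± 0.12, and Mir192, of gut and liver, by 0.40 ± 0.10. Mir200b stood at 4.12, 4.50 and 4.25 at day 5, against 3.27, 3.49 and 3.27 at day 0. Families outside the list, chosen after their values were seen, moved too. Of 5 measured genes of the X-linked Mir106a to Mir363 cluster 4 fell. Mir363 stood at 2.62, 2.45 and 2.36, against 4.53, 3.94 and 5.48 at day 0, with a wide day 0 spread and a difference of -2.17 (SE 0.52, limma adjusted p = 0.00225). Mir20b changed by -1.29 (SE 0.24), Mir106a by -1.0 (SE 0.31; call lost without day 0 replicate 3) and Mir19b-2 by -0.89 (SE 0.21). In the cluster of chromosome 14 that holds Mir17 and Mir20a, which share the seed AAAGUGC with Mir106a and Mir20b, 0 of 5 were called by limma, at any adjusted p from 0.0819 to 0.459. Mirlet7f-1 stood at 5.80, 5.77 and 5.82, against 4.32, 4.02 and 4.41 at day 0, and rose by 1.55 ± 0.11, one of 3 risers among 10 genes of its family.

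The Mir302 to Mir367 cluster, whose Mir302b and Mir302d products carry the seed AAGUGCU, was called or not with the arrays that entered the fit. Mir302b stood at 6.42, 6.57 and 6.21 at day 5, against 7.23, 6.56 and 6.77 at day 0, with 1 overlap between the days. Of the 5 measured genes, at -0.45 to -0.68, none was called in the fit of all 18 arrays, and 4 fell in the fit of the 6 ST5 arrays alone. The listed microRNA genes then gave 4 rises and 5 falls, as they did without the 2 arrays that stand apart, and 3 falls without day 0 replicate 2.

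The day 0 arrays of ST5 differed among themselves in an order that some gene lists shared, a pattern noticed in the values and given without a test. Over all genes the standard deviation was larger at day 0 than at day 5 in 60.9% of genes. Day 0 replicate 1 was the highest and replicate 3 the lowest array for 17.5% of all genes, but for 8 of 11 formative epiblast genes, 7 of 14 primitive streak genes, 7 of 15 secreted endoderm markers and 15 of 30 guidance genes. The reverse, replicate 3 the highest and replicate 1 the lowest, held for 13.8% of all genes, and for 8 of 14 naive factors and 6 of 14 genes of the Dppa group. Frzb, for instance, stood at 8.77, 8.67 and 8.57 at day 5, against 6.33, 5.69 and 5.06 at day 0. The first order was not confined to developmental genes, nor shared by all of their lists. It held for 8 of 19 fibroblast markers, 10 of 22 glycolysis genes and 9 of 24 secretory genes, but for 3 of 22 foregut and pancreatic factors, 2 of 21 Cdx and Hox genes and 1 of 16 neural factors.

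The response of ST5 was then set against those of ES cells and of ST8, each line with its own day 0 arrays. Between the days 38.6% of genes were called in ES cells and 40.5% in ST8, beside the 47.9% in ST5. Both comparisons use the same ST5 arrays. The difference of responses was called for 1112 genes against ES cells (5.58%), 657 higher (3.3%) and 455 lower (2.28%), and by at least 2-fold for 0.607% higher and 0.507% lower. Against ST8 it was called for 432 genes (2.17%), 222 higher (1.11%) and 210 lower (1.05%), and by at least 2-fold for 0.135% and 0.115%. These counts depended on the fit. Against ST8 it was 32 with the arrays of both lines alone, 27 with a replicate block within each line and 28 without day 5 replicate 3 of ST8, and against ES cells 690 with that block and 357 without day 5 replicate 3 of ES cells. Without the 2 arrays that stand apart 5282 genes were called against ES cells (13.5% higher, 13% lower) and 5042 against ST8 (12.2% higher, 13% lower), and all of the 1112 and 432 were among these in the same direction. Day 5 replicate 1 of ES cells lay at least 2-fold from the ST5 day 5 mean in 110 genes, against 795 and 723 for the other ES arrays. Day 5 replicate 2 of ST8 did so in 17 genes, against 740 and 716 for the other ST8 arrays.

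Both arrays were thus nearer to ST5 day 5 than to the other arrays of their own groups. Nanog stood at 5.96, 6.58 and 5.78 in ST5 at day 5, at 8.18 on the ES array that stands apart and 9.24 on both others, and at 6.85 on the ST8 array that stands apart, against 9.93 and 9.84 on the others. Rfx6 stood at 9.74 to 9.88 in ST5, at 9.36 and 9.93 on these arrays, and at 7.05 to 8.07 on the other 4. Nnat went with the label of the line: it stood at 9.11 to 9.45 in ST5, and at 5.40 on the ST8 array that stands apart, beside 5.11 and 5.54 on the other ST8 arrays. The difference in response of Nanog was not called in either comparison (limma adjusted p = 0.0632 and 0.0728), and it was called in both without the 2 arrays. Of 23 alternatives it was called in 4 against ES cells and in 3 against ST8.

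**Figure D5:**
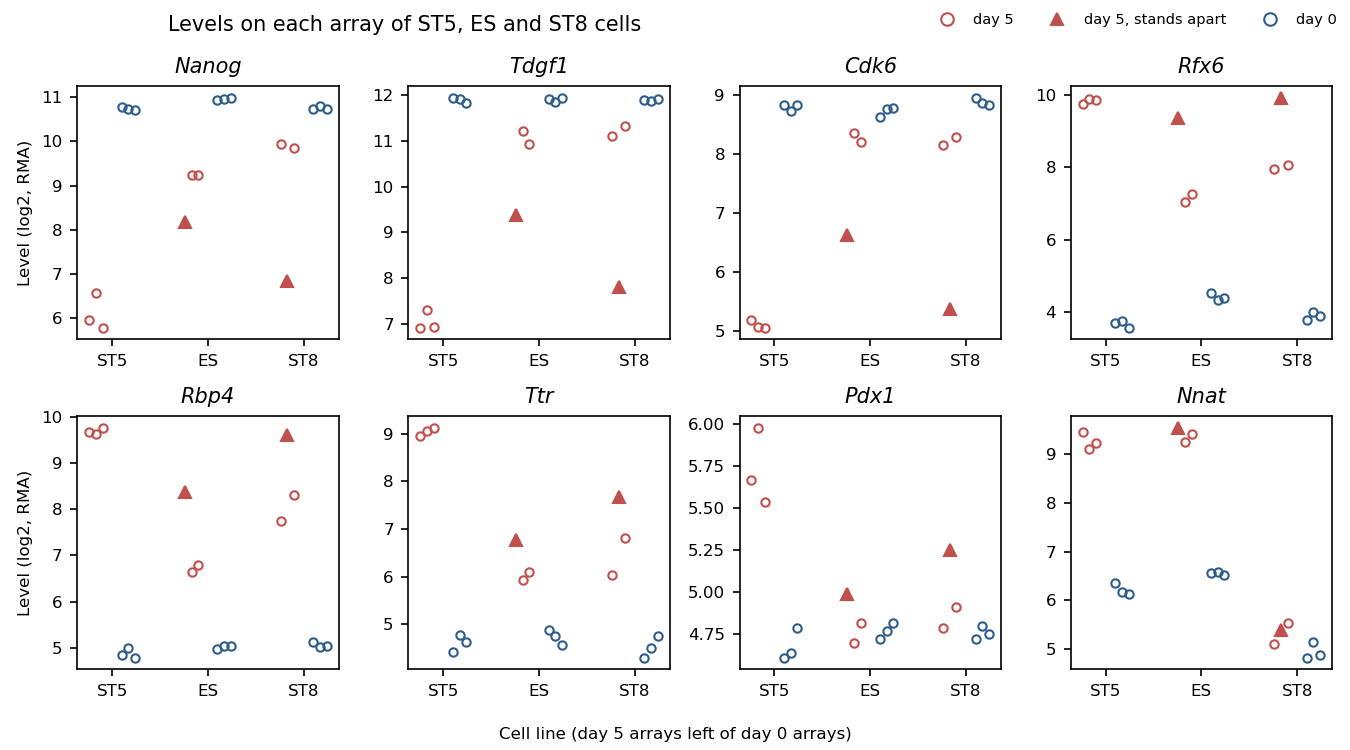
Log2 level of 8 genes on each array of ST5, ES and ST8 cells, with day 5 arrays (red) left of day 0 arrays (blue) within each line; filled triangles are the 2 day 5 arrays that stand apart, ES replicate 1 and ST8 replicate 2. For Nanog, Tdgf1, Cdk6, Rfx6 and Rbp4 the triangles lie between the other day 5 arrays of their line and those of ST5 or next to those of ST5, and for Nnat the ST8 triangle (5.40) lies with ST8.

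Tnc, Ttr and Rfx6 led the genes whose response was higher in ST5 than in ES cells. The matrix protein tenascin C (Tnc) was not called in ST5 itself (0.82 ± 0.35, limma adjusted p = 0.0684). It was called there in 3 of 17 alternatives (limma adjusted p down to 1.68e-05). Its ST5 arrays did not overlap, at 8.34, 8.20 and 8.23 at day 5, against 7.58, 7.35 and 7.38 at day 0. In ES cells it differed by -2.49 and in ST8 by -1.18. The response difference was 3.31 ± 0.50 against ES cells (limma adjusted p = 0.00268) and 2.0 against ST8 (adjusted p = 0.0499), and this second call was lost in 17 of 23 alternatives (adjusted p up to 0.143). Ttr rose by 4.44 ± 0.29 in ST5, beside 1.52 in ES cells and 2.32 in ST8, differences of 2.92 ± 0.41 (adjusted p = 0.00177) and 2.12 (adjusted p = 0.0236). The call against ES cells held in all 23 alternatives and that against ST8 was lost in 9, with limma adjusted p up to 0.0702. Its ST5 day 5 arrays lay above every day 5 array of the other lines, the 2 that stand apart included. Pdx1, at 1.05 in ST5, 0.06 in ES cells and 0.23 in ST8, gave limma adjusted p = 0.00412 and 0.0258 and had its lowest ST5 day 5 array (5.54) above the highest of ES cells (4.99) and of ST8 (5.25). Its call against ST8 was lost in 11 of 22 alternatives. Rfx6 and Rbp4 were called against ES cells, with differences of 2.68 ± 0.70 and 2.55 ± 0.56, and not against ST8 (adjusted p = 0.27 and 0.189). The call of Rfx6 was lost in 13 of 23 alternatives (limma adjusted p up to 0.104) and that of Rbp4 in 2. For Rfx6 these were the replicate block (adjusted p = 0.0518), the fit with an intensity trend (adjusted p = 0.0568) and the omission of any 1 of the 12 arrays of both lines except day 5 replicate 1 of ES cells.

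On the lower side, Tdgf1 fell by 4.83 in ST5, beside differences of -1.39 in ES cells and -1.81 in ST8. The difference was called against ES cells (-3.45, SE 0.91, limma adjusted p = 0.0372) and not against ST8 (adjusted p = 0.0843). The call against ES cells was lost in 13 of 23 alternatives (adjusted p up to 0.103). The amino acid transporters Slc7a3 and Slc1a4 and the transaminase Bcat1 fell more in ST5 than in both other lines. Slc7a3 differed by -3.42 in ST5, -0.69 in ES cells and -0.62 in ST8, and Bcat1 by -4.32, -1.89 and -2.12. Against ES cells the calls of all 3 held in 23 of 23 alternatives. Against ST8 that of Slc1a4 held in all, that of Slc7a3 was lost in 1 (adjusted p = 0.0511) and that of Bcat1 in 11 (adjusted p up to 0.085). Of 13 genes of serine, glycine and threonine metabolism 3 were called lower against ES cells and 4 against ST8. The shares over all genes were 2.28% and 1.05%. Mthfd2, Psat1 and Shmt2 were called in both. The calls of Psat1 were lost in 14 of 23 alternatives against ES cells and 11 against ST8, those of Mthfd2 in 2 and 11 and those of Shmt2 in 1 and 1. The call of Psph against ST8 (-0.48, limma adjusted p = 0.0443) was lost in 15 of 23. Klf4, a naive factor, was the reverse, with -1.44 in ST5 against -3.01 in ES cells and -3.03 in ST8 (adjusted p = 0.00141 and 0.0046), and it lay at 7.28 to 7.46 on the ST5 day 5 arrays, against 5.34 to 6.36 on the day 5 arrays of both other lines.

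For some genes with a called difference in response, the lines differed in level at day 0. The canonical Wnt targets Sp5 and Axin2 fell by 2.05 and 2.15 in ST5, beside -0.45 and -0.72 in ES cells (adjusted p for the difference 3.07e-06 and 0.00272), and by 1.77 and 1.46 in ST8. Sp5 stood at 5.63 to 5.88 in ST5 at day 5 and 5.74 to 5.91 in ES cells at day 5, against 7.67 to 7.87 in ST5 at day 0 and 6.16 to 6.38 in ES cells at day 0. Bmp4 fell by 2.74 in ST5 and differed by -0.35 in ES cells and -2.72 in ST8, with 8.53 to 8.73 in ST5 at day 0, against 7.03 to 7.04 in ES cells at day 0. Meg3 fell by 2.36 in ST5 and differed by -0.29 in ES cells, where it stood at 9.76 to 10.18 at day 5, against 10.14 to 10.33 at day 0. In ST8 it differed by -2.50, and the clones did not differ in response by the test (adjusted p = 0.607). Nnat split the clones: it rose by 3.05 ± 0.12 in ST5 and differed by 0.40 in ST8, a difference of 2.65 (adjusted p = 7.63e-07), with 2.85 in ES cells.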

How the data were processed

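The deposited values are log2 intensities that the authors computed with RMA, per the submitters' processing notes, with no version given; the log2 scale was read from the values. Of 35556 deposited probe sets, 21789 named 1 gene in the platform annotation, 1621 named several and 12146 were not listed. Each of the 19938 genes was represented by its probe set with the highest mean over the 30 arrays, a choice that touched 999 genes. Gene IDs of 99.6% of the probe sets that named 1 gene matched RefSeq.

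The 18 unamplified arrays (ST5, ES and ST8 at both days, 3 replicates each) were fitted as 6 groups with limma 3.58.1 in R 4.3.3 (lmFit, eBayes, 12 residual degrees of freedom), and p-values were adjusted by Benjamini-Hochberg over all genes at 0.05. All adjusted p-values in the text are limma's. Amplified arrays entered no test. On simulated data for day 5 against day 0 over 19938 genes, 64% of changes of 0.5 and 100% of changes of 1 were recovered, and 4.71% of calls were false. For the response of ST5 against those of ES cells and ST8, 34% and 32% of changes of 0.5 and 86% of changes of 1 in each were recovered. Of the calls 1.84% and 8.09% were false, the second share above the 5% the adjustment aims at. The simulation was run once, changed few genes, in ST5 at day 5 only, and drew the noise of each gene on its own. It held no array that shifts many genes together, as the arrays that stand apart do. These rates therefore need not hold for the data, least of all for the response differences.

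The gene lists, the genes compared and the tests were chosen with earlier results of these data known. Named genes were the 12 largest rises and falls, up to 4 per list and direction, and the 8 largest response differences per direction. The largest rises and falls were taken from called genes whose ST5 arrays did not overlap between the days. They and the response differences left out provisional symbols and some multicopy families. These were olfactory and vomeronasal receptor, histone, ribosomal, snoRNA and snRNA genes. Zinc finger families stayed in. Further list members, such as Pdx1, Cdh1 and Lgr5, were picked after their values were seen. Lists are described by counts and medians with no test of their own. Alternatives were other scalings, probe set rules, fits, a filter on dim genes, a replicate block and leaving out each array. Per the labels the replicates are biological; whether they came from separate cultures is not stated, so the p-values measure the spread between these samples.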

Additional observations from a re-analysis of the deposited data

Results flagged for a closer look

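The response of ST5 differed from that of ES cells by limma's test of the difference in these named genes, on the log2 scale. It was higher in ST5 for Tnc (3.31), Ttr (2.92), Rfx6 (2.68), Rbp4 (2.55), Airn (2.39), Slc13a4 (2.25), Zfp711 (2.23) and Klhl13 (2.15). It was lower for Tdgf1 (-3.45), Nr1h5 (-2.96), Etv1 (-2.80), Slc7a3 (-2.72), Aplnr (-2.61), Rspo3 (-2.60), Bcat1 (-2.43) and Stmn2 (-2.41). Of 22 or 23 alternatives, 14 lost the call of Airn, Zfp711 or Etv1 and 13 that of Rfx6 or Tdgf1. The call of Rspo3 was lost in 9, that of Aplnr in 5 and that of Rbp4 in 2. Epcam, a surface protein of epithelia, differed by 0.65.

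Against ST8 the response of ST5 was higher for Nnat (2.65), Ttr (2.12), Fosb (2.08), Tnc (2.0), Eya4 (1.80), Ikzf2 (1.68), Wnk3 (1.61) and Klf4 (1.59). It was lower for Slc7a3 (-2.80), Bcat1 (-2.20), Mcf2 (-2.12), Stmn2 (-1.88), Nrcam (-1.48), Fgf15 (-1.43), Chil1 (-1.38) and Slc1a4 (-1.34). Both sets rest on the same ST5 arrays. Against ST8 the call of Tnc was lost in 17 alternatives, that of Fgf15 in 16 and those of Eya4, Wnk3 and Stmn2 in 15. The call of Ikzf2 was lost in 14, Nrcam in 13, Bcat1 in 11, Mcf2 in 10, Ttr in 9, Fosb in 8 and Slc7a3 in 1.

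Outside the gene tests lay 13767 probe sets that named several genes or were not listed. Of these 3212 were called between day 5 and day 0 in ST5, 616 of them at least 2-fold higher at day 5 and 189 at least 2-fold lower. They are not named here.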

How the results depend on the processing

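For day 5 against day 0 in ST5, every alternative kept the counts within 1.5 times of 9560. Leaving out 1 ST5 array gave 8683 to 9435 calls (4316 to 4516 higher, 4367 to 4919 lower, 2152 to 2235 at least 2-fold). Of 271 named genes 253 kept their call and direction in each of the 17 alternatives run on them (the filter on dim genes left 226 of the 271), 18 lost or gained a call in at least 1, and none reversed. Of 90 further genes in the text 74 stayed on their side, 3 lost and 13 gained a call, and none reversed. Same-numbered day 5 and day 0 arrays of ST5 correlated at 0.18, 0.02 and 0.05 in their deviations from the group means, so the numbers were not taken as pairs. With a replicate block 9615 genes were called, and 9307 with a block within each line, an alternative added after seeing the data, as was leaving out the 2 arrays that stand apart.

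The response differences moved with the settings. Against ES cells, the arrays of both lines alone gave 1882 calls (1004 higher, 878 lower, 382 at least 2-fold), a common median 1092 higher (76.7% of calls, against 59.1%), the replicate block 925, the block within each line 690 (398 and 292), and leaving out the 2 arrays that stand apart 5282 (2682 and 2600, 778 at least 2-fold). Leaving out 1 array gave 357 (without ES day 5 replicate 3) to 3275 (without ES day 5 replicate 1), with 197 to 1844 higher, 160 to 1431 lower and 84 to 688 at least 2-fold.

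Against ST8, the arrays of both lines alone gave 32 calls (16 and 16, 15 at least 2-fold), a common median 385 higher and 115 lower (77.0% higher, against 51.4%), dim genes left out 882 (441 and 441), the replicate block 218 (100 and 118, 30 at least 2-fold), the block within each line 27 (17 and 10, 16 at least 2-fold), and leaving out the 2 arrays 5042 (2441 and 2601, 730 at least 2-fold). Leaving out 1 array gave 28 (without ST8 day 5 replicate 3) to 3952 (without ST8 day 5 replicate 2), with 14 to 1846 higher, 14 to 2106 lower and 13 to 705 at least 2-fold. The cause of these shifts was not tested. Of the 16 genes named in each comparison, 8 against ES cells and 4 against ST8 (Nnat, Klf4, Chil1 and Slc1a4) kept their call in all 23 alternatives, and none reversed. With dim genes left out, 0 of 12 blood genes, 1 of 21 Cdx and Hox genes, 3 of 14 endothelial, 4 of 16 neural, 4 of 16 germline and 2-cell, 7 of 20 mesoderm and heart, 9 of 22 foregut, 9 of 21 visceral endoderm and 9 of 21 listed microRNA genes remained, so most members of these lists are dim.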
